A study of Mus musculus with 19 samples.

Results

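The 9 genes described here are markers of microglia: Aif1, Cx3cr1, P2ry12, Tmem119, Csf1r, Trem2 and the 3 complement C1q genes C1qa, C1qb and C1qc. They were chosen by name, as the rows of the deposited count table whose Ensembl identifier belongs to these symbols, and all 9 were found among the 51789 genes of the table. The 19 libraries held RNA of the dorsal hippocampus from C57BL/6J males aged 2 to 4 months. In experiment 1 every mouse was tTA+ and had been exposed to SOR, an abbreviation that the labels leave unexplained. Of these mice, 5 were tTA+/DN+ and 6 were tTA+/DN- control littermates. DN is a transgene for a dominant-negative Nr4A transcription factor, and tTA is the tetracycline transactivator, which turns on transgenes behind a tet promoter. In experiment 2 every mouse was DN-, with 4 mice exposed to SOR and 4 homecage mice. SOR replicate 1 and homecage replicates 1 and 2 were tTA-, and the other 5 mice of experiment 2 were tTA+. The promoter behind tTA, the cells that make DN and the interval between SOR and dissection were not given in the sources used here. The tissue was whole, so a lower value can mean fewer microglia or less RNA per cell, which cannot be told apart.

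Microglia are the resident macrophages of the brain. They depend on signalling through the receptor Csf1r for survival, sense neurons and injury through Cx3cr1 and P2ry12, and secrete C1q, the recognition protein of the classical complement pathway. C1q is built from the A, B and C chains that C1qa, C1qb and C1qc encode, and in the hippocampus it is known as a tag on synapses that microglia remove. Trem2 is a receptor for lipids and apolipoproteins that signals through the adaptor Tyrobp, Aif1 encodes the cytoplasmic protein Iba1, and Tmem119 is a surface protein used to tell microglia from other macrophages.

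All 9 genes are protein-coding. On GRCm38, Trem2 lies on chromosome 17, 48346401 to 48354147 (11 annotated exons, plus strand), and Cx3cr1 on chromosome 9, 119901616 to 120069879 (7 exons, minus strand). P2ry12 lies on chromosome 3, 59216272 to 59262871 (12 exons, minus strand), Aif1 on chromosome 17, 35170991 to 35176068 (19 exons, minus strand) and Tmem119 on chromosome 5, 113793729 to 113800516 (5 exons, minus strand). The C1q genes form a cluster on the minus strand of chromosome 4: C1qb at 136880129 to 136886187 (3 exons), C1qc at 136889804 to 136893065 (5 exons) and C1qa at 136895917 to 136898803 (3 exons). Gaps of 3616 bp and 2851 bp separate these neighbours, and the cluster spans 18675 bp. Exon overlap with genes on the other strand was 78 bp for Cx3cr1 (Gm33858) and 9 bp for P2ry12 (Med12l).

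Upstream sequences were printed for 2 C1q neighbours and Trem2, whose levels rose and fell together across libraries, and for P2ry12, whose level went the other way in 1 library. RefSeq gave the 250 bases upstream of the start (GRCm38.p6) for 6 of the 9 genes. They are shown on the gene's own strand, 5′ to 3′, with GAGGAA or its other-strand form TTCCTC in capitals, a core recognised by PU.1, the myeloid factor encoded by Spi1. The windows are chr4:136886201-136886450 for C1qb, chr4:136892915-136893164 for C1qc (both minus strand), chr17:48346151-48346400 for Trem2 (plus strand) and chr3:59262986-59263235 for P2ry12 (minus strand).
C1qb: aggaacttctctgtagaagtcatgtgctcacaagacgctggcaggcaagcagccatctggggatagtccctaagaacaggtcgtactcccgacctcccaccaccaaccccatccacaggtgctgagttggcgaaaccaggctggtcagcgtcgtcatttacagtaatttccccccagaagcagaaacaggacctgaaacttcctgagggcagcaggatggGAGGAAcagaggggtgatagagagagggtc
C1qc: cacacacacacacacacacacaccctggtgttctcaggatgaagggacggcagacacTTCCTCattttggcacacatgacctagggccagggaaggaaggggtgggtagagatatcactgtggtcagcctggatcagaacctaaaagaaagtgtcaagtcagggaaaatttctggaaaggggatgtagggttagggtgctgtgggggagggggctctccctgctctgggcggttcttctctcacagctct
Trem2: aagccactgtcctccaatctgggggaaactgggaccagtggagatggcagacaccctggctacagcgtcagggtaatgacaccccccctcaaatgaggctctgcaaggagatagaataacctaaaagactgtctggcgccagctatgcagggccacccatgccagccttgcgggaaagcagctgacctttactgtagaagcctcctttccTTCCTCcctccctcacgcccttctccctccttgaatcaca
P2ry12: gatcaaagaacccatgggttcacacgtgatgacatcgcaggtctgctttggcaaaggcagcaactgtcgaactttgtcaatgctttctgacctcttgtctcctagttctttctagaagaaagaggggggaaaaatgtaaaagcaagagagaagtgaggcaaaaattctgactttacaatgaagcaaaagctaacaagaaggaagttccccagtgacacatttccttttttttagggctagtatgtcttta
The motif was present in 4 of the 6 windows, those of Aif1, C1qb, C1qc and Trem2, and these letters were not in the windows of P2ry12 and Cx3cr1. Among all 32851 RefSeq windows of the same length, 7639 (23.3%) held it on either strand. A match of 6 letters describes the sequence and is not a binding site, and other forms of the site were not searched.

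Library totals ran from 22258159 to 66991576 counts. Every marker was detected in every library, from a low of 124 counts for Aif1 to a high of 7785 for Csf1r. Checked on lists of cell type genes, the labelled brain tissue had summed neuron genes at 3708 to 4738 CPM and astrocyte genes at 3932 to 4973 CPM. Summed leukocyte genes were at 0.83 to 2.04 CPM, and Cd3e, S100a8, S100a9, Plac8 and Ly6c2 were at 0 counts in at least 1 library. Summed genes of border macrophages, which live in the meninges and around vessels, were at 10.3 to 14.4 CPM, against 327 to 454 CPM for the 9 markers. The library of SOR replicate 3 in experiment 2 stood apart. It had the lowest total, and 35.6% of genes differed by more than 0.5 on the log2 scale from the mean of the other 3 SOR libraries, against 13.7% to 22.4% when each of those was treated the same way. Fold changes of the markers and medians of the microglia, partner, complement, activation and interferon lists in experiment 2 are therefore given with and without it, while values of single genes outside the markers are given with it unless stated.

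Levels of the 9 markers were compared per kb of annotated exon, as CPM per kb, where CPM is the count relative to the library total, scaled between libraries by TMM. In the 6 controls of experiment 1, C1qa and C1qb were at 35.3 ± 3.70 and 33.2 ± 1.94 CPM per kb (SD, n = 6), and their ranges overlapped. Csf1r followed at 21.04 ± 0.850 CPM per kb, below every C1qb library. Csf1r lies on the plus strand of chromosome 18 at 61100598 to 61132149 and has 34 annotated exons. Of the Csf1r exon sequence, 873 bp (15.1%) overlap exons of Hmgxb3 on the opposite strand. The use of strand in counting was not given in the sources used here, so part of the Csf1r counts may belong to Hmgxb3, which held 41560 counts over the 19 libraries against 91018 for Csf1r. C1qc and P2ry12 could not be ordered, at 16.96 ± 1.65 and 16.9 ± 0.832 CPM per kb, and neither could Cx3cr1 and Tmem119, at 11.1 ± 0.898 and 10.8 ± 0.662 CPM per kb. Aif1 was at 2.69 ± 0.268 CPM per kb and Trem2 at 2.00 ± 0.164 CPM per kb, the lowest level in the libraries of this group. The order of means was the same in the DN mice and in the homecage mice. After SOR in experiment 2, C1qc moved above Csf1r in the mean, at 24.9 ± 6.58 against 21.2 ± 2.58 CPM per kb (SD, n = 4), and Tmem119 above Cx3cr1, at 13.3 ± 1.92 against 10.05 ± 0.916 CPM per kb. Without replicate 3 the means were 21.8 and 19.9 CPM per kb for C1qc and Csf1r, and 12.4 and 10.4 CPM per kb for Tmem119 and Cx3cr1, in the same order. The Csf1r and C1qc libraries overlapped, while every Tmem119 library lay above every Cx3cr1 library.

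**Figure D1:**
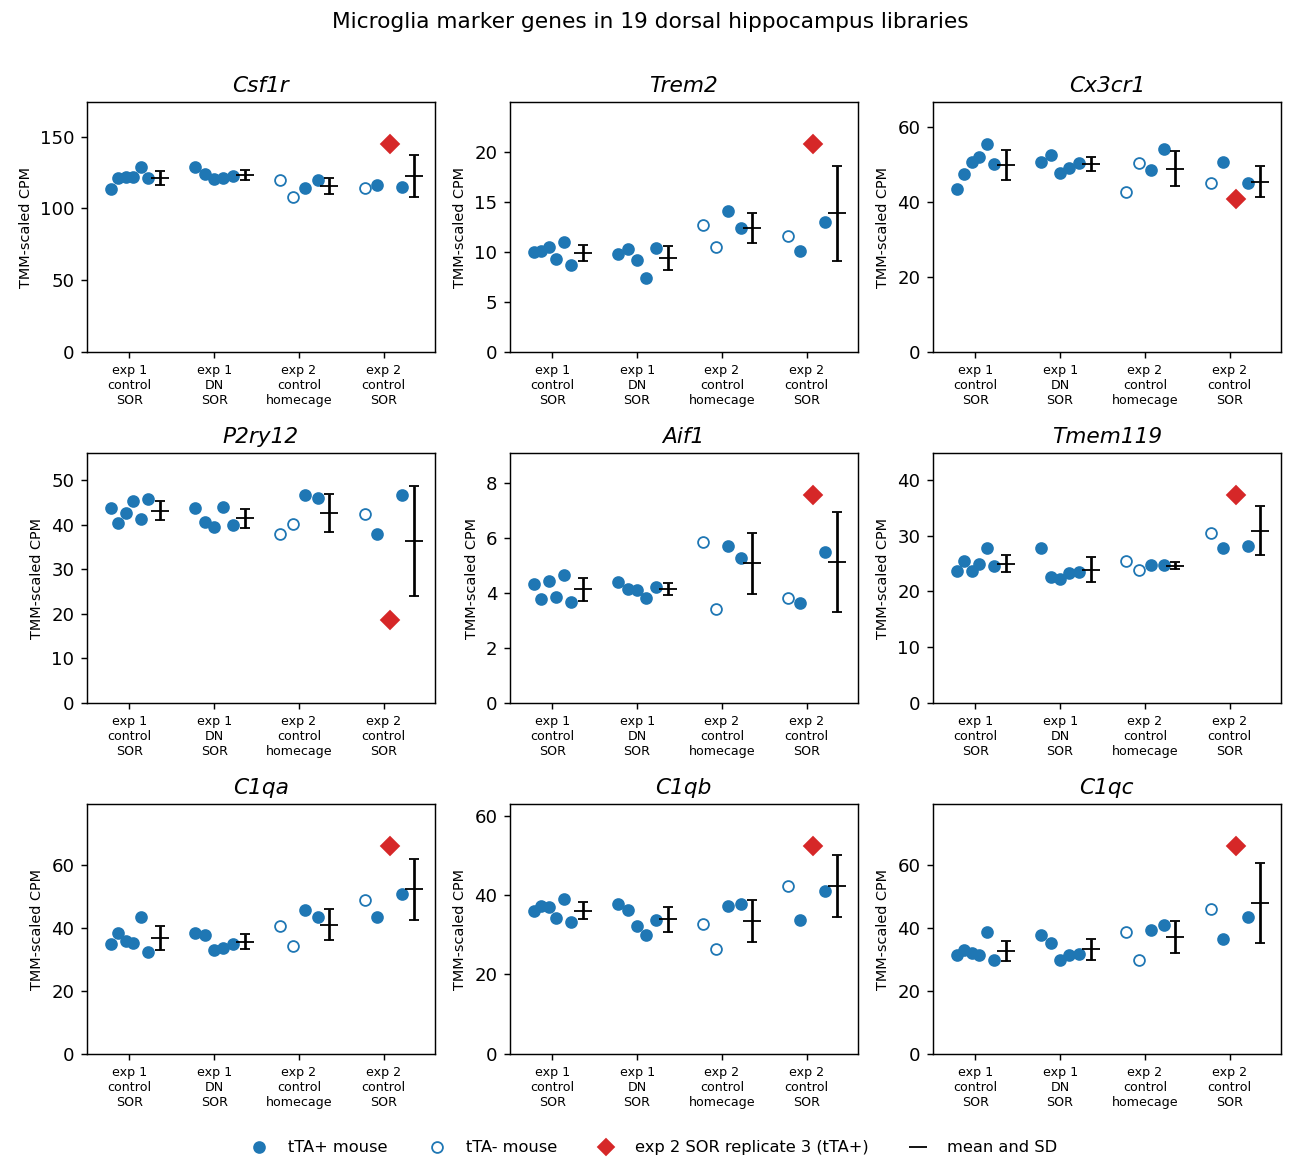
TMM-scaled CPM (linear axes from 0) of the 9 markers in each library, by group, with filled points for tTA+ and open points for tTA- mice, and the mean and SD beside each group. The groups of experiment 1 overlap in every panel, and the red diamond, SOR replicate 3 of experiment 2, is the lowest P2ry12 value (18.5 CPM) and the highest Csf1r value (145 CPM).

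The first comparison set DN mice against controls, all tTA+ and all exposed to SOR. The 9 markers did not differ detectably between them. The 5 DN libraries held Csf1r at 129, 124, 121, 121 and 122 CPM, and the 6 controls at a lowest of 114, a median of 121 and a highest of 129 CPM. P2ry12, the ADP receptor that directs microglial processes, was at 43.6, 40.5, 39.4, 43.9 and 39.9 CPM with DN and at 40.3 to 45.7 CPM (median 43.1) without it. C1qb was at 37.7, 36.1, 32.2, 29.9 and 33.8 CPM with DN and at 33.3 to 39.04 CPM (median 36.4) in the controls. The groups overlapped in all 9 genes.

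By edgeR's quasi-likelihood test 0 of the 9 markers were called at an adjusted p under 0.05, where 0.00893% of the 22391 genes tested were called, and 0 had an unadjusted p under 0.05, where 3.83% of all genes did. DESeq2 and limma-voom also called 0. The smallest unadjusted p was that of C1qb, with a log2 fold change of -0.09 (SE 0.0567, edgeR adjusted p = 0.999). Log2 fold changes were above 0 for Csf1r (0.02), C1qc (0.02), Cx3cr1 (0.01) and Aif1 (0.00), and below 0 for P2ry12 (-0.06), Tmem119 (-0.07), Trem2 (-0.08) and C1qa (-0.05). The median over the 9 was -0.05, against 0.00 over all genes tested, of which 50% lay above 0. The 95% intervals of the fold changes were narrow: the interval of Csf1r ran from -0.05 to 0.09 and that of C1qa from -0.18 to 0.09. The widest were those of Aif1, from -0.21 to 0.21, and Trem2, from -0.27 to 0.10. Without DN replicate 1, 2 markers had an unadjusted p under 0.05, where 1235 of 22574 genes did. With the replicate number as a block it was 1, C1qb, where 736 of 23906 genes did. Under the other alternatives it was 0.

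Genes that act with the markers were described from lists of other microglia genes, partners of the markers, complement and activation. Of 16 other microglia genes, 0 were called with DN, and 6 were above and 10 below 0, with a median log2 fold change of -0.03. Spi1 was at -0.23 (SE 0.144). Of 12 tested partners 0 were called, with Csf1 and Il34, the ligands of Csf1r, at 0.11 (SE 0.0559) and -0.09 (SE 0.0580). Among 16 other complement genes 0 were called, and C4b, which C1 cleaves to carry the cascade on, had a log2 fold change of 0.30 (SE 0.127, edgeR adjusted p = 0.999). C1ra, a protease of the C1 complex, was at 0.30 (SE 0.174). Of 13 tested genes of activated microglia 0 were called, with Cybb, a subunit of the phagocyte NADPH oxidase, at 0.48 (SE 0.189, edgeR adjusted p = 0.999) and Clec7a at 0.31 (SE 0.260). The remaining 4 of that list, Ccl4, Il1b, Tnf and Ch25h, had too few counts to be tested. Of 8 interferon-response genes, 6 were above 0 and 0 were called, with the interferon-induced regulator gene Irf7 at 0.30 (SE 0.193). In these lists the edgeR adjusted p of each named gene was 0.999.

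The second comparison set SOR against homecage in the DN- mice of experiment 2, where 3 of 4 SOR mice and 2 of 4 homecage mice were tTA+. Tmem119 and the 3 C1q genes had the largest positive fold changes among the markers, near 0.3 on the log2 scale, and none of them passed the adjusted test. SOR replicates 1 to 4 held Tmem119 at 30.4, 27.7, 37.3 and 28.1 CPM, and homecage replicates 1 to 4, listed in the same way from here on, held 25.4, 23.8, 24.7 and 24.7 CPM. Every SOR library lay above every homecage library, also without replicate 3. C1qa was at 48.97, 43.5, 66.2 and 50.8 CPM against 40.8, 34.3, 45.7 and 43.6 CPM, and homecage replicates 3 and 4 exceeded SOR replicate 2. C1qb was at 42.2, 33.7, 52.4 and 40.9 CPM against 32.7, 26.3, 37.3 and 37.8 CPM. C1qc was at 45.9, 36.5, 66.1 and 43.7 CPM against 38.8, 29.8, 39.3 and 41.04 CPM. In each C1q gene SOR replicate 2, the lowest of its group, lay within the homecage range, and SOR replicate 3 was the highest library.

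Of the 9 markers, 0 were called by edgeR's quasi-likelihood test, against 0.0897% of the 22305 genes tested. DESeq2 and limma-voom also called 0. At an unadjusted p under 0.05 there were 3 markers, all higher, where 7.6% of all genes fell in either direction and 3.67% were higher. Tmem119 had a log2 fold change of 0.32 (SE 0.105, edgeR adjusted p = 0.604) and was the 1 marker whose groups did not overlap, which held for 5.56% of all genes and, with SOR higher, for 2.71%. For C1qa the value was 0.35 (SE 0.134, edgeR adjusted p = 0.621), for C1qb 0.33 (SE 0.147, edgeR adjusted p = 0.650) and for C1qc 0.36 (SE 0.168, edgeR adjusted p = 0.656). Without SOR replicate 3 these fold changes were 0.22 for Tmem119 (SE 0.0723, edgeR adjusted p = 0.446), 0.22 for C1qa (adjusted p = 0.612), 0.21 for C1qb (adjusted p = 0.685) and 0.18 for C1qc (adjusted p = 0.716). The number of markers under an unadjusted p of 0.05 was then 1, Tmem119, where 1862 of all 22809 genes tested in that fit were. This number was also 1 without homecage replicate 1 (1170 of 22727 genes) and without homecage replicate 2 (876 of 22661 genes). With any other library left out the number was 2 to 4. Under the other scalings, filters, tools and covariates that kept every library it was 2 to 4, with 4 in the fits by DESeq2, with no filter, with the replicate number as a block and with all 19 libraries. In tTA+ mice alone (3 SOR against 2 homecage) the fold changes were 0.33 for Tmem119, 0.26 for C1qa, 0.17 for C1qb, 0.28 for C1qc and -0.43 for P2ry12, each with an edgeR adjusted p of 0.998, and 0 markers had an unadjusted p under 0.05.

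The other 5 markers gave no common direction. P2ry12 was at 42.4, 37.8, 18.5 and 46.6 CPM against 37.9, 40.2, 46.6 and 45.9 CPM. Only SOR replicate 3 lay far outside the homecage range. Its log2 fold change of -0.23 (SE 0.219) became -0.02 without replicate 3. Trem2 was at 11.6, 10.1, 20.8 and 13.03 CPM against 12.7, 10.5, 14.1 and 12.4 CPM, with a fold change of 0.14 (SE 0.200) that turned to -0.11 without replicate 3. Aif1 was at 3.82, 3.63, 7.56 and 5.47 CPM against 5.86, 3.42, 5.72 and 5.28 CPM. In both genes replicate 3 alone exceeded the homecage range. The fold change of Aif1 was -0.00 (SE 0.249), and -0.23 without replicate 3. Csf1r was at 115, 116, 145 and 115 CPM against 119.7, 108, 114 and 119.7 CPM, with a fold change of 0.09 (SE 0.0939), and -0.00 without replicate 3. Cx3cr1, the receptor for the neuronal chemokine Cx3cl1, was at 44.9, 50.7, 40.6 and 44.96 CPM against 42.6, 50.3, 48.4 and 53.95 CPM, a fold change of -0.11 (SE 0.0990), and -0.06 without replicate 3. Over the 9 markers 6 were above 0 and the median was 0.14, against 51.5% and a median of 0.01 over all genes tested. Without replicate 3 there were 4 above 0 and the median was -0.00.

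**Figure D2:**
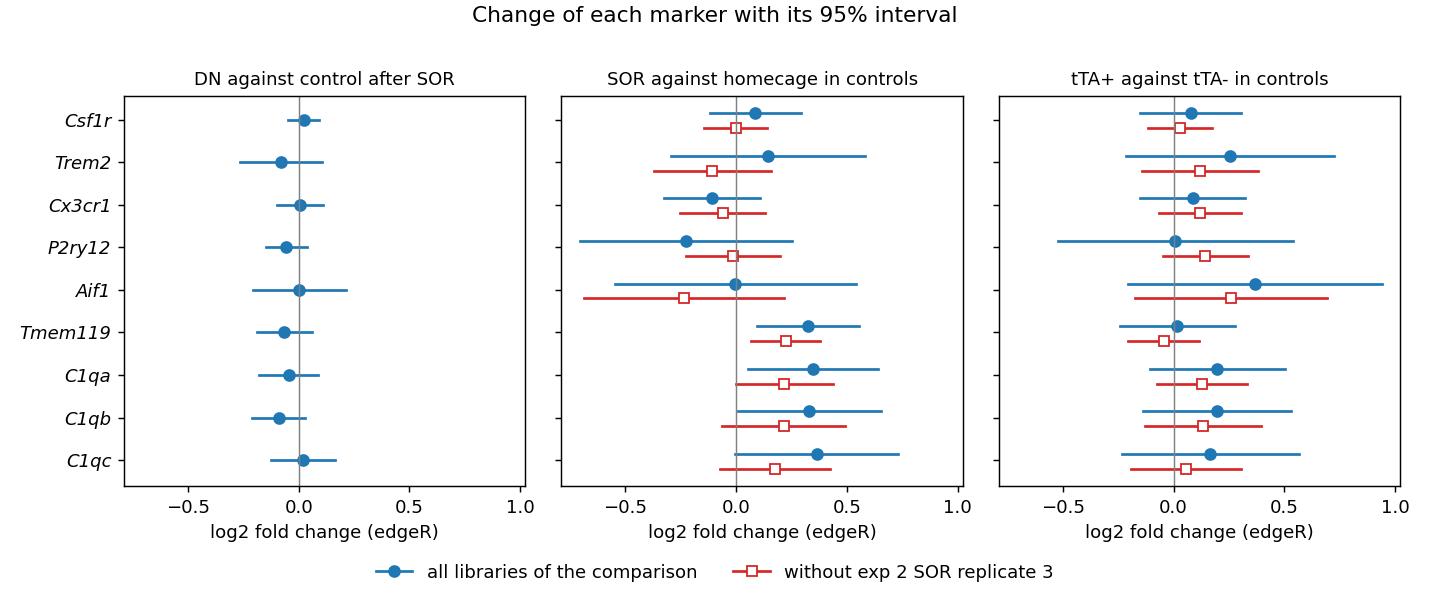
Log2 fold change from edgeR (points) and its 95% interval (lines) for the 9 markers in the 3 comparisons, with red open squares for the fits without SOR replicate 3. The DN intervals all cross 0, and in the SOR comparison the value of C1qc falls from 0.36 to 0.18 and that of P2ry12 moves from -0.23 to -0.02 when the replicate is left out.

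Other microglia genes were spread about 0 after SOR. Of 16, 0 were called, 7 were above and 9 below 0, and the median log2 fold change was -0.01 (0.02 without replicate 3). Cd33, a sialic acid-binding inhibitory receptor, was at -0.49 (SE 0.161, edgeR adjusted p = 0.608), with every SOR library below every homecage library. P2ry13, a purine receptor gene of the same family as P2ry12, was at -0.34 (SE 0.161, edgeR adjusted p = 0.658). Among 12 tested partners 9 were above 0 and 0 called, with Nrros, which presents latent TGF-beta on microglia, at 0.33 (SE 0.109, edgeR adjusted p = 0.608) and Syk, the kinase downstream of the Trem2 adaptor, at 0.33 (SE 0.160, adjusted p = 0.662). Of 16 other complement genes 0 were called, with C3, the central component, at -0.75 (SE 0.269, edgeR adjusted p = 0.621) and the neuronal complement regulator Sez6 at -0.22 (SE 0.102, adjusted p = 0.654). In the activation list 0 of 13 tested genes were called, with the lipoprotein lipase gene Lpl at -0.37 (SE 0.124, edgeR adjusted p = 0.608) and the chemokine gene Ccl3 at 0.89 (SE 0.360, adjusted p = 0.628). Of 8 interferon-response genes 5 were above 0 and 0 called, with Ifit3 at 0.19 (SE 0.124) and Bst2 at 0.38 (SE 0.244), each with an edgeR adjusted p of 0.682. Without replicate 3 the medians were 0.07 for partners (0.09 with it), 0.07 for other complement genes (0.01 with it), -0.03 for the activation list (-0.01 with it) and 0.12 for interferon-response genes (0.06 with it), and 0 genes of these lists were called.

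Genes of other cells were compared in the same libraries, and none of those named here was called with all 8 libraries. All 8 choroid plexus genes were above 0, with a median log2 fold change of 2.62 (2.97 without replicate 3), 0 called and 5 at an unadjusted p under 0.05. Their summed level was 22.4 to 2189 CPM after SOR and 43.2 to 169.9 CPM in the homecage, and it ran from 18.4 to 4123 CPM in the controls of experiment 1. Of 8 oligodendrocyte genes, 7 were above 0 with a median of 0.14, and without replicate 3, 7 with a median of 0.059. Of 7 border macrophage genes, 5 were above 0 and 0 called, with a median of 0.29 (0.21 without replicate 3). Of these, Lyve1, F13a1 and Cd163 were higher in every SOR library than in every homecage library, as Tmem119 was, with Lyve1 at 1.10 (SE 0.298, edgeR adjusted p = 0.468) and F13a1 at 0.29 (SE 0.166, adjusted p = 0.671). The summed border macrophage genes were at 11.4 to 13.7 CPM after SOR and 11.1 to 12.3 CPM in the homecage. Of 6 astrocyte genes 3 were above 0, and of 4 genes of oligodendrocyte precursors 2. The groups were also separate, with SOR higher, for Aldh1l1 of the astrocyte list at 0.41 (SE 0.147, edgeR adjusted p = 0.621), Gpr17 of the precursor list at 0.40 (SE 0.105, adjusted p = 0.413) and Mobp of the oligodendrocyte list at 0.28 (SE 0.0824, adjusted p = 0.541). Of 6 endothelial genes 2 were above 0, with Ly6c1 at 0.56 (SE 0.156, edgeR adjusted p = 0.489) and Slco1a4 at -0.30 (SE 0.0979, adjusted p = 0.608). Without replicate 3 Ly6c1 was at 0.68 and was called (edgeR adjusted p = 0.0447). The part of these cells in the C1q and Tmem119 values was not tested.

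The third comparison set the 5 tTA+ against the 3 tTA- mice of experiment 2, with exposure in the model. It uses the same 8 libraries as the SOR comparison. All 9 markers had a fold change above 0 in tTA+ mice, none was called, and 8 of 9 were above 0 without SOR replicate 3. C1qb was at 33.7, 52.4, 40.9, 37.3 and 37.8 CPM in tTA+ mice (SOR replicates 2 to 4, then homecage replicates 3 and 4) and at 42.2, 32.7 and 26.3 CPM in tTA- mice (SOR replicate 1, then homecage replicates 1 and 2). Aif1 was at 3.63, 7.56, 5.47, 5.72 and 5.28 CPM against 3.82, 5.86 and 3.42 CPM. The groups overlapped in all 9 genes.

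The fold changes were 0.37 for Aif1 (SE 0.259), 0.25 for Trem2 (SE 0.212), 0.20 for C1qa (SE 0.137), 0.20 for C1qb (SE 0.151), 0.17 for C1qc (SE 0.180), 0.09 for Cx3cr1 (SE 0.107), 0.08 for Csf1r (SE 0.104), 0.02 for Tmem119 (SE 0.117) and 0.01 for P2ry12 (SE 0.240). The sign for P2ry12 and Tmem119 turned with upper quartile scaling, to -0.02 and -0.01. With the replicate number as a block Tmem119 was at -0.12 (SE 0.261), C1qc at -0.07 (SE 0.294), Trem2 at -0.22 (SE 0.334) and C1qa at 0.01 (SE 0.235). Only replicate 2 holds both tTA genotypes, so the tTA values of that fit rest on this pair. By edgeR 0 of 9 were called, against 0.363% of the 23659 genes tested, and 0 had an unadjusted p under 0.05, against 5.76% of all genes. DESeq2 and limma-voom also called 0. The median over the 9 was 0.17, where that of all genes tested was 0.01 and 52.4% of them lay above 0. Without SOR replicate 3 the median was 0.12, and the fold changes were 0.26 for Aif1, 0.12 for Trem2, 0.13 for C1qa, 0.13 for C1qb, 0.06 for C1qc, 0.12 for Cx3cr1, 0.03 for Csf1r, -0.04 for Tmem119 and 0.14 for P2ry12. The values of the C1q genes, Trem2, Aif1 and Csf1r were smaller without this library, and those of P2ry12 and Cx3cr1 larger. Among homecage mice alone (2 tTA+ against 2 tTA-), C1qb had a fold change of 0.35, P2ry12 of 0.25 and C1qa of 0.26, with edgeR adjusted p of 0.0798, 0.0925 and 0.156. These 3 markers had an unadjusted p under 0.05, where 4549 of the 22617 genes tested in that fit did and 944 were called.

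Of 16 other microglia genes, 12 were above 0 in tTA+ mice with a median of 0.11 (0.13 without SOR replicate 3), and 0 were called. Nearest to the threshold was Ctss, which encodes the protease cathepsin S, at 0.26 (SE 0.179). Csf1 was lower in each tTA+ library than in each tTA- library, at -0.27 (SE 0.103, edgeR adjusted p = 0.713), where 5.76% of all genes had groups that did not overlap, and Syk was at 0.31 (SE 0.153, adjusted p = 0.952). Of 13 partners 8 were above 0 and 0 called, with a median of 0.04 (0.10 without SOR replicate 3). In the activation list 10 of 15 tested genes were above 0 and 0 called, with a median of 0.09, and without SOR replicate 3 also 10 of 15, with a median of 0.18. Gpnmb and Ccl4 of that list were at -0.29 (SE 0.125) and 1.15 (SE 0.515), with edgeR adjusted p of 0.820 and 0.863. Other complement genes had 7 of 16 above 0, 0 called and a median of -0.05 (-0.00 without SOR replicate 3), with Sez6 at 0.13 (SE 0.107) and Cr1l, a membrane regulator of complement, at -0.11 (SE 0.0956). Interferon-response genes had 3 of 8 above 0, 0 called and a median of -0.09 (2 of 8 and -0.08 without SOR replicate 3), with Rtp4 at -0.26 (SE 0.264) and Ifit1 at -0.19 (SE 0.202). All 8 oligodendrocyte genes were above 0 with a median of 0.17 (0.12 without SOR replicate 3), 0 called, and their part in the marker values was not tested.

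SOR replicate 3 was then described marker by marker, because among the 4 SOR libraries of experiment 2 it held the highest value of 7 markers and the lowest of the other 2. Relative to the mean of the other 3 SOR libraries, P2ry12 was lower by a log2 difference of -1.18 and Cx3cr1 by -0.20. The other 7 were higher, at 0.33 for Csf1r, 0.38 for Tmem119, 0.43 for C1qb, 0.47 for C1qa, 0.66 for C1qc, 0.83 for Aif1 and 0.85 for Trem2. The summed C1q genes were 9.97 times the P2ry12 level in this library and 2.25 to 3.24 times in the other 7 of experiment 2. GC content of the annotated transcripts was set beside these values. P2ry12 had the lowest GC content of the 9, at 39.4%, and Cx3cr1 the next, at 50.03%, while the others lay between 51.7% and 59.5%. Over all genes tested, the median difference of this library rose from -0.71 in the GC decile with the lowest GC content to 0.37 in the highest decile. In the other 3 SOR libraries the decile medians lay between -0.19 and 0.27. The marker values did not all follow the medians of their deciles. Cx3cr1, at -0.20, had the opposite sign to its decile median of 0.02. P2ry12, at -1.18, lay below its decile median of -0.71, and C1qc, at 0.66, above its decile median of 0.25. Aif1 and Trem2 lay above decile medians of 0.11 and 0.17, and Tmem119, at 0.38, close to its decile median of 0.37.

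**Figure D3:**
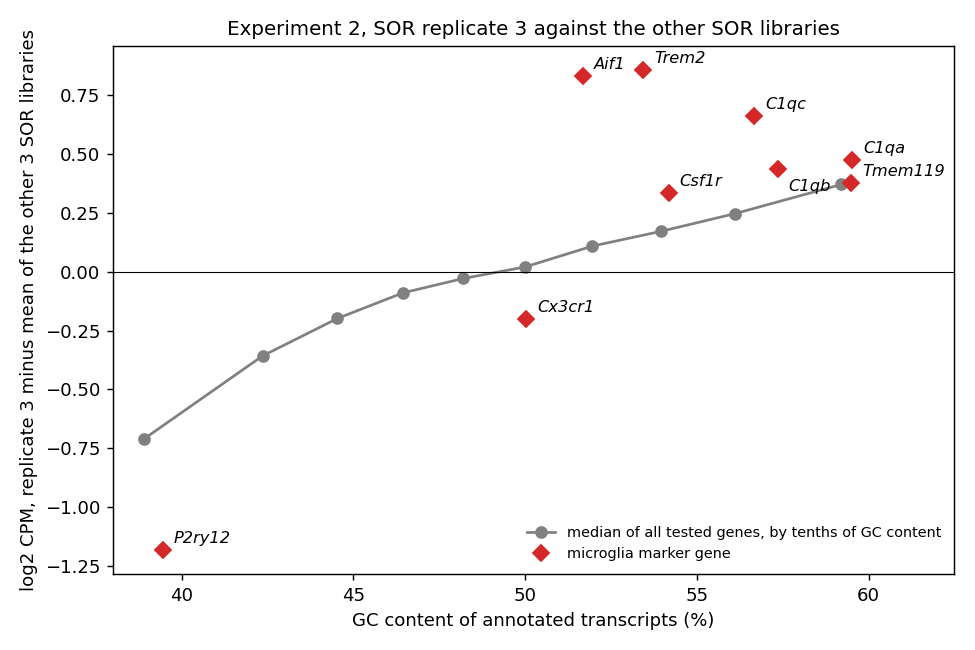
Log2 CPM of SOR replicate 3 minus the mean of the other 3 SOR libraries of experiment 2, against the GC content of annotated transcripts in percent; grey points are medians of all tested genes in deciles of GC content and red diamonds are the 9 markers. P2ry12, with 39.4% GC, is at -1.18 and the 7 markers above 51% GC are at 0.33 to 0.85.

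The GC dependence was summarised for every library as the median centred log2 CPM of the highest GC decile minus that of the lowest. This GC tilt was 0.978 in SOR replicate 3 and -0.291 to 0.185 in the other 18 libraries. The measure was taken up after this library had been seen to stand apart, so its relations to the markers are given as descriptions, with no test. For P2ry12 r was -0.919 across 19 libraries centred within experiment, -0.520 without the 2 libraries farthest from the median tilt, -0.331 within experiment 1 and -0.109 within experiment 2 without SOR replicate 3, and rho over 19 libraries was -0.632. For C1qa r was 0.812 across 19 libraries, 0.893 within experiment 1 and 0.612 within experiment 2 without SOR replicate 3, and for C1qc it was 0.850, 0.783 and 0.685. For Aif1 it was 0.620, 0.456 and 0.169, and for Trem2 0.781, 0.479 and 0.109, so the last value of both was below the first. Csf1r had 0.899, 0.533 and 0.715, Tmem119 0.779, 0.401 and 0.596, and C1qb 0.724, 0.635 and 0.641. Cx3cr1 had -0.394, 0.530 and -0.195. The part of GC content in the marker values was not tested.

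The markers were next compared with each other across the 19 libraries (36 pairs, Pearson r and Spearman rho, permutation within experiment, adjusted over all 72 tests). The C1q genes moved most closely together. For C1qa and C1qc r was 0.960 and rho 0.909, for C1qa and C1qb 0.942 and 0.953, and for C1qb and C1qc 0.923 and 0.911. The permutation p was at most 2.00e-05 for each, where 1e-05 is the smallest the draws can give, with adjusted p of at most 0.000206. Without the 2 farthest libraries r was 0.874, 0.837 and 0.783, in that order. Within experiment 1 (n = 11) it was 0.922, 0.814 and 0.728, and within experiment 2 (n = 8) 0.970, 0.975 and 0.965. Aif1 and Trem2 had r = 0.843 and rho = 0.746 (permutation p = 1e-05 and 0.000590, adjusted 0.00012 and 0.00386), with r = 0.713 without the 2 farthest libraries, 0.677 within experiment 1 and 0.897 within experiment 2.

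In all, 17 of 36 pairs passed an adjusted permutation p of 0.05 for r, each with a positive r. With levels centred on each group in place of each experiment, 23 of 36 passed, 21 of them positive. Without SOR replicate 3 it was 9 of 36, all positive. Tmem119 was correlated with each C1q gene, with r of 0.785 to 0.852 over 19 libraries and 0.609 to 0.643 without the 2 farthest. P2ry12 was negatively related to 7 of the other 8 markers over 19 libraries, with a median r of -0.61 over its 8 pairs. Without SOR replicate 3 that median was 0.19, so the negative median rests on this library. Within experiment 1, r was negative with every marker but Tmem119 (0.261), from -0.469 for Trem2 to -0.0333 for Cx3cr1. Within experiment 2 without SOR replicate 3 it ran from -0.0325 for Tmem119 to 0.685 for Trem2. Cx3cr1 passed with no other marker. Its r with Csf1r was 0.847 within experiment 1 and -0.595 within experiment 2.

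**Figure D4:**
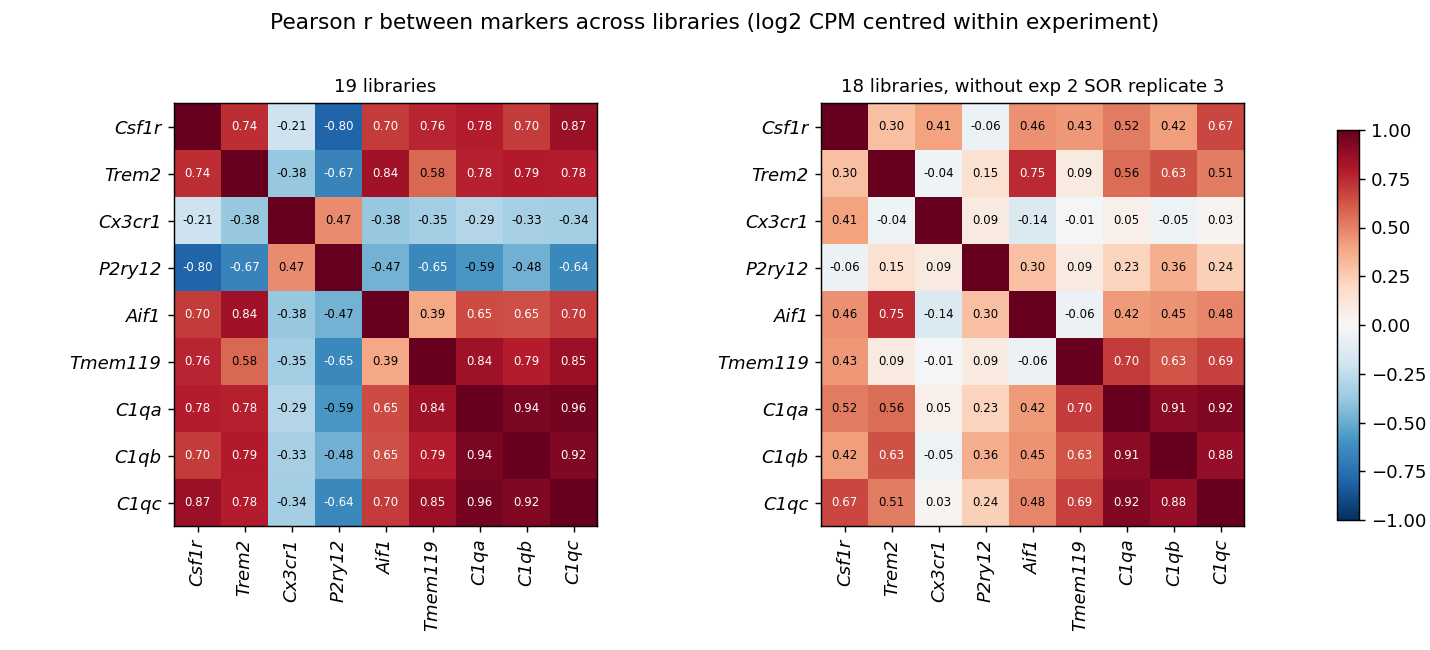
Pearson r between the 9 markers (log2 CPM centred within experiment), over 19 libraries on the left and without SOR replicate 3 of experiment 2 on the right. The block of the 3 C1q genes stays above 0.87 on both sides, while the blue P2ry12 row on the left, with a median of -0.61, turns to a median of 0.19 on the right.

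The proportions of the C1q chains differed between experiments more than within them. The count ratio of C1qa to C1qb was 1.03 ± 0.0526 in experiment 1 (SD, n = 11, range 0.973 to 1.13) and 1.24 ± 0.0555 in experiment 2 (SD, n = 8, range 1.15 to 1.30), so the ranges did not overlap. The ratio of C1qb to C1qc was 1.07 ± 0.0663 against 0.896 ± 0.0538, with ranges of 0.952 to 1.15 and 0.792 to 0.950 that were separate by a narrow margin. C1qa to C1qc was 1.10 ± 0.0376 and 1.11 ± 0.0692, with overlapping ranges. It is thus C1qb that stood at a different proportion to both other chains. Leaving out SOR replicate 3 gave 1.23 and 0.911 for the first 2 ratios in experiment 2. Within experiment 2 the C1qa to C1qb ratio was 1.24 ± 0.0575 after SOR and 1.23 ± 0.0620 in the homecage (SD, n = 4 each), and within experiment 1 it was 1.05 ± 0.0466 with DN (n = 5) and 1.02 ± 0.0554 in the controls (n = 6). Among tTA+/DN- mice exposed to SOR, the genotype and exposure that both experiments share, the C1qa to C1qb ratio was 0.973 to 1.12 in the 6 mice of experiment 1 and 1.24 to 1.29 in the 3 of experiment 2. Nothing else separates these mice in the labels than the experiment, so handling, sequencing and cohort cannot be told apart.

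To find genes with a like pattern, the mean centred log2 CPM of the 9 markers was taken as a score per library and compared with each of the other genes tested in all 3 comparisons. The score did not follow all 9 markers: over 19 libraries its r was -0.465 with P2ry12 and -0.213 with Cx3cr1, and 0.738 to 0.940 with the other 7. Those of P2ry12 and Cx3cr1 were 0.402 and 0.110 when SOR replicate 3 was left out. Among the 10 of 21731 genes with the highest r over 19 libraries were Rps14 (0.957), Rpl3 (0.954), Pfdn5 (0.952), Eef1a1 (0.951), Urod (0.946), Rps7 (0.946), Rpl12 (0.945), Rps4x (0.943) and Naxe (0.943). Of those named, 5 encode ribosomal proteins and Eef1a1 a translation elongation factor. Over the 10, r without SOR replicate 3 lay between 0.913 for Urod and 0.944 for Rps14. The 83 ribosomal protein genes, a group taken up after this ranking was seen, had a median r of 0.875 with the score. The 16 other microglia genes had a median r of 0.0448, near the -0.0319 of all genes. They ranged from -0.665 for the microglial transcription factor gene Sall1 to 0.879 for Ctss, 8 were below 0, and the best ranked at 170. Without SOR replicate 3 their median r was 0.396, and the median over all genes was not taken in that setting. The libraries differ in depth and GC tilt and may differ in handling. The part of these in the correlations was not tested, and the correlations are given as descriptions.

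**Figure D5:**
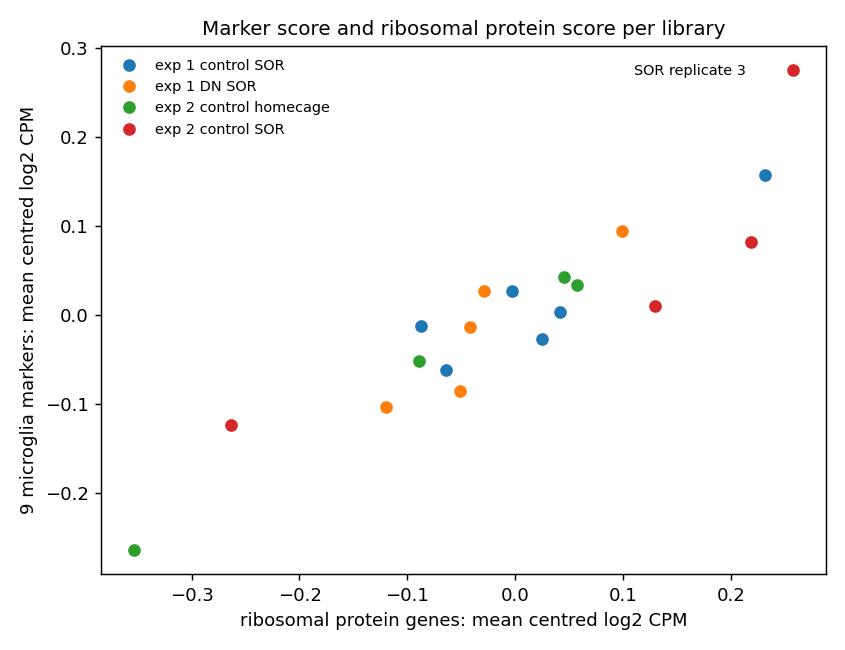
Mean centred log2 CPM of the 9 markers (vertical axis) against that of 83 ribosomal protein genes (horizontal axis) in each of the 19 libraries, coloured by group. The library farthest to the upper right is SOR replicate 3 of experiment 2 and the lowest is a homecage library, with marker scores of 0.275 and -0.265.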

How the data were processed

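The authors deposited raw counts in 1 table of 51789 genes and 19 libraries of ribosomal-RNA-depleted total RNA. The submitters' processing notes name STAR, SAMtools 1.6, featureCounts 1.4.4 and mm10; strand and annotation settings were not given in the sources used here. Symbols, positions and exon lengths came from GENCODE M21 (51596 of the identifiers). Groups came from the labels. The labels do not tie libraries to litters or cages, and p-values measure only the spread between these libraries.

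Comparisons used the quasi-likelihood test of edgeR 4.0.16 (robust, TMM, filterByExpr, two-sided) in R 4.3.3, adjusted by Benjamini-Hochberg over all genes tested and called under 0.05. Experiments were fitted apart. CPM were scaled by TMM; log2 CPM used a prior count of 2, and correlations 100000 permutations within experiment. On simulated data with 200 changed genes (log2 fold 1), 197, 171 and 160 were recovered in the DN, SOR and tTA designs, with 11, 9 and 14 false calls. Smaller changes, such as those of the markers, were not simulated. Named were all 9 markers, the 2 smallest p per list and comparison and any called list gene, and the 10 genes most like the marker score; of the lists of other cells, those set beside a result are named. Some genes that this rule names are not reported here. The markers and lists were chosen with earlier results of these data known. Alternatives included DESeq2 1.42.0, limma-voom (limma 3.58.1), other scalings and filters, 1 fit of all libraries, covariates and leaving out each library.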

Additional observations from a re-analysis of the deposited data

Results flagged for a closer look

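In 3 of 36 groups of marker values 1 library lay farther from the rest than Dixon's 95% limit allows, where chance gives about 1 in 20 groups. Tmem119 was at 27.7 CPM in DN replicate 1 of experiment 1, above the 22.3 to 23.5 CPM of the other 4 DN libraries and equal to the highest control to 3 digits. C1qc was at 38.9 CPM in control replicate 5 of experiment 1, where the other 5 controls were at 29.8 to 32.9 CPM. Csf1r was at 145 CPM in SOR replicate 3 of experiment 2, against 115 to 116 CPM in the other 3 SOR libraries.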

How the results depend on the processing

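No marker was called under any alternative, in 180 fitted values for DN, 171 for SOR and 162 for tTA. The lowest edgeR adjusted p was 0.870, 0.102 (Tmem119, all 19 libraries in 1 fit) and 0.0798 (C1qb, homecage mice alone). Over the alternatives P2ry12, Tmem119, Csf1r, C1qb and Trem2 kept their sign with DN, Cx3cr1, P2ry12, Tmem119 and the 3 C1q genes with SOR, and Aif1, Cx3cr1, Csf1r, C1qa and C1qb with tTA. The number of genes called over the whole table moved more. With SOR it went from 20 to 35 at an adjusted p under 0.1, 36 with no filter, 122 with DESeq2, 145 with all 19 libraries in 1 fit, 13 with the replicate number as a block, 11 with tTA as a covariate, 0 in tTA+ mice alone by edgeR (374 at an unadjusted p under 0.05), and 1 to 50 when 1 library was left out (1 without homecage replicate 1, 2 or 3, 7 without homecage replicate 4, 2 without SOR replicate 1, 13 without SOR replicate 2, 50 without SOR replicate 3). With tTA it went from 86 to 136, 265, 252 and 383 under the first 4 of these settings, 0 with the block by edgeR (432 at an unadjusted p under 0.05), 944 in homecage mice alone, and 10 to 288 when 1 library was left out (10 without SOR replicate 1, 22 to 25 without any 1 homecage library, 56 without SOR replicate 4, 288 without SOR replicate 3). Signs turned as follows. With DN, Aif1 was at -0.000376 with DESeq2 and -0.0245 with the replicate block, and C1qc at -0.00758 with the block. With SOR, Aif1 was at 0.00222 with DESeq2 and 0.00429 with all 19 libraries. With tTA, P2ry12 was at -0.0153 with upper quartile scaling, -0.000836 with at least 10 counts in every library and -0.000980 with limma-voom. Tmem119 was at -0.0119 with upper quartile scaling and -0.12 with the block, which put C1qc at -0.0698 and Trem2 at -0.22 and lowered C1qa from 0.20 to 0.00743, C1qb from 0.20 to 0.0309 and Aif1 from 0.37 to 0.14. Leaving out 1 library gave, with DN, -0.0264 to 0.0424 for Aif1, -0.0299 to 0.0385 for Cx3cr1, -0.0786 to 0.00982 for C1qa and -0.0336 to 0.0754 for C1qc. With SOR it gave -0.23 to 0.13 for Aif1, -0.0023 to 0.12 for Csf1r and -0.11 to 0.27 for Trem2, and with tTA -0.0922 to 0.25 for P2ry12 and -0.0443 to 0.0469 for Tmem119. Among markers that kept their sign, it gave -0.126 to -0.0321 for Tmem119, -0.133 to -0.0474 for C1qb and -0.117 to -0.00177 for Trem2 with DN. With tTA it gave 0.23 to 0.60 for Aif1 and 0.0981 to 0.35 for C1qb. In the block fit for tTA only replicate 2 holds both genotypes, so its tTA values rest on that pair. The cause of the other shifts was not tested. Without SOR replicate 3, 9 marker pairs passed in place of 17 and the median r of P2ry12 was 0.19. Same-numbered libraries correlated from -0.0601 to 0.161 for DN and from 0.0454 to 0.391 for SOR. The labels do not say whether the numbers pair them, and these values do not settle it. With the block 2 genes were called for DN. For SOR the block gave 0.34 for C1qa (SE 0.0836, edgeR adjusted p = 0.338) and 0.33 for C1qb (SE 0.0884, adjusted p = 0.363). In that fit 2653 of 23659 genes had an unadjusted p under 0.05, against 1695 of 22305 in the main fit. Aif1, with 124 to 391 counts, was the least precisely counted marker.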
